A study of Mus musculus with 30 samples.

Results

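The mitochondrial ribosomal protein genes were taken as the genes whose symbol is Mrpl or Mrps followed by a number and at most 1 letter, pseudogenes left out. A total of 78 genes met the rule among the 55291 names of the washout count table, and the same 78 stood among the 21859 genes of each time-course table. By name 49 belong to the large subunit (Mrpl) and 29 to the small subunit (Mrps). The names are historical: the product of Mrps18a sits in the large subunit, and Mrps36 is known today as a subunit of the 2-oxoglutarate dehydrogenase complex. The rule itself uses names only.

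The mitochondrial ribosome translates the few messages made from mitochondrial DNA, which encode core subunits of the respiratory chain and of ATP synthase. Its ribosomal RNAs come from the mitochondrial genome, but every protein of it is encoded in the nucleus, translated in the cytosol and imported. The genes therefore lie scattered over the nuclear chromosomes, each with its own promoter, and their products are needed together in fixed proportions. Many promoters of nuclear genes for mitochondrial proteins carry sites for NRF1, for the ETS-family factor GABP and for YY1.

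The RNA came from mouse E14 embryonic stem cells grown without feeders in serum with LIF and inhibitors of GSK and MEK. The assay was TT-seq, in which a short pulse of 4-thiouridine marks RNA while it is made, and only marked fragments are sequenced. SPT16 is the larger protein of FACT, a histone chaperone that opens and rebuilds nucleosomes around RNA polymerase. It carried a C-terminal V5 and auxin-inducible degron tag (SPT16-AID) in cells with osTIR1 in their genome, and 3-indoleacetic acid (IAA, 500 nM) triggers its degradation. The washout experiment had 8 libraries: SPT16-AID cells given IAA or ethanol (EtOH) for 12 h and then fresh medium for 24 h, in 2 separately targeted lines called 10E and 11D, with 2 libraries for each line and treatment. The time course had 22 libraries. They are untagged cells at 0 h or given IAA for 3, 6 or 12 h, and SPT16-AID cells at 0 h or given EtOH or IAA for those times. It is held here only as the authors' comparison tables, which state neither the groups compared nor the direction. Its values are therefore called positive or negative as signed. The groups follow the sample titles, which other label fields contradict in part of the time course, and the IAA washout samples also carry a text on ethanol. Whether the 2 libraries of a line and treatment stem from separate cultures is not stated, and the p-values then cover only their spread, which may be technical.

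The washout libraries held 6547992 to 16554314 counts. A set of 11 loci with ribosomal RNA-like reads took 7.33 to 11.7% of counts in EtOH and 30.6 to 41.8% in IAA libraries. The summed level of 10 embryonic stem cell markers was 1961 to 3440 CPM (counts scaled to the TMM-adjusted library size) in EtOH and 2248 to 2513 in IAA libraries, and none of the 10 was called. Sox2, which lies inside Sox2ot on the same strand, was listed at 0 in every library. That of 6 fibroblast markers was at most 2.02 and that of 4 neural markers at most 1.32 CPM, with Sox1, Neurod1 and Tubb3, which likewise lie inside another gene, at 0. Markers of primitive endoderm (1 of 5 called higher) reached 13.8 CPM and markers of trophoblast 12.3 CPM in the IAA libraries.

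Of the 78 members, 69 had a promoter in the RefSeq table (build GRCm38.p6, the mm10 assembly of the files). Their windows of 300 bases, from 250 before to 50 after the start, were searched on both strands for 6 motifs. CCGGAAG, an ETS-type site, stood in 24 windows (34.8%), against 18.1% of 10131 promoters of protein-coding genes tested in the washout, the members included. An NRF1-type site, GCGCA and GCGC with 1 base of any kind between them, stood in 13 (18.8%, against 10.4%). AANATGGCG, a YY1-type site that can overlap the first ATG, stood in 11 (15.9%, against 5.25%). The other motifs were CCAAT (39.1% against 38.9%), GGGCGG (49.3% against 65.6%) and TATAAA (5.80% against 6.44%). A match describes letters in a window, and these shares were not tested. The stretches below run from 100 bases before to 30 after the RefSeq start. They are examples from the called members: Mrpl17, Mrpl12, Mrpl23 and Mrps14 from the washout, and Mrps27 and Mrps18a from the 12 h table. Capitals mark matches on either strand to the NRF1-type site, CCGGAAG or AANATGGCG.
Mrpl17, chr7:105811058-105811187, minus strand: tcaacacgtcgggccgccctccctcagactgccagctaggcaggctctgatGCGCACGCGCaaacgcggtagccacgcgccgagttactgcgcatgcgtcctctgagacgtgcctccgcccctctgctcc
Mrpl12, chr11:120484537-120484666, plus strand: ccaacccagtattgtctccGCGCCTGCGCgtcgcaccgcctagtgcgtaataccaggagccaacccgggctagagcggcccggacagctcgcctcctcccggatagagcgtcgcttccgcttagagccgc
Mrpl23, chr7:142532932-142533061, plus strand: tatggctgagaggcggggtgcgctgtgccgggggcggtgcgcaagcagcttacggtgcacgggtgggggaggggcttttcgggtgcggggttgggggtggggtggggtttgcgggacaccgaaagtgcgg
Mrps14, chr1:160195115-160195244, plus strand: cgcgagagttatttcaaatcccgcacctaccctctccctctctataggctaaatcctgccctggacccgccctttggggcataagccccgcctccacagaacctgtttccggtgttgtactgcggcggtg
Mrps27, chr13:99344686-99344815, plus strand: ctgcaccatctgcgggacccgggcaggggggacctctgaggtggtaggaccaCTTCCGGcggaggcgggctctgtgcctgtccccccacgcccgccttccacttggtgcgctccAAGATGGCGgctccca
Mrps18a, chr17:46110904-46111033, plus strand: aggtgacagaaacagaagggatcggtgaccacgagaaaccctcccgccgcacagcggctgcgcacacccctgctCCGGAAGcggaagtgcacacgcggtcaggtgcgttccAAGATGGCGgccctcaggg
Mrpl17 and Mrpl12 each hold 1 NRF1 match, Mrps27 and Mrps18a each hold an ETS and a YY1 match, and the stretches of Mrpl23 and Mrps14 hold none of the 3. Of called members not shown, Mrpl33 holds an ETS match in its stretch. The stretches of Mrpl39 and Mrps24 (washout) and of Mrpl42, Mrps10 and Mrps18b (12 h) hold none of the 3. These stretches are shorter than the windows of 300 bases counted above. In its full window Mrpl39 has an NRF1 match, Mrps24 and Mrpl42 each a YY1 match, and Mrps18b and Mrpl17 each an ETS match. Mrps10, Mrpl23 and Mrps14 have none of the 3 there either.

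The members were short genes. The 75 that could be tested in the washout had a median annotated length of 7.89 kb and a median exonic share of 34.4%, against 27.4 kb and 17.1% for the 12764 protein-coding genes tested. Of these 75 members, 33 (44.0%) had a protein-coding gene on the other strand starting within 1000 bp of their own start, against 15.8% of those 12764 genes. One such pair, Mrpl46 and Mrps11, joins a large and a small subunit gene. These figures were not tested.

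Mrpl33, Mrpl53 and Mrps6 were listed at 0 counts in all 8 washout libraries. The annotated body of each is covered on the same strand, over at least 99% of its length, by a predicted gene (Gm43809, Gm42688 and Gm49711), and pairs that fall in several genes were not counted. Their values are therefore not a measure of their transcription. Mrpl53 and Mrps6 were at 0 in the time-course tables as well, which left 76 members there, whereas Mrpl33 had mean counts from 522 to 1708 in them.

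With EtOH the levels of the members spanned 38.6-fold per length, from 0.376 to 14.5 CPM per kb of gene body with a median of 2.73. This covers 75 members, with parts shared with another gene on the same strand left out of the length. Mrps2, an RNA-binding protein of the small subunit, was highest at 14.5 ± 2.88 CPM per kb (SD, n = 4). Mrpl17, which lies near the exit of the peptide tunnel, followed at 9.85 ± 1.68 CPM per kb, and Mrpl12, a stalk protein that binds translation factors and also mitochondrial RNA polymerase, at 8.12 ± 1.87 CPM per kb. Mrpl17 and Mrpl12 did not differ beyond their spread. The lowest were Mrpl48 (0.376 ± 0.0589), Mrps28 (0.688 ± 0.295) and Mrps36 (0.989 ± 0.102 CPM per kb). Mrps28 is the longest member (121.8 kb), and its 4 EtOH libraries did not agree: 65.3, 62.7 and 69.2 CPM in 3 of them and 137.2 CPM in 11D EtOH replicate 2.

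After 24 h of washout most members had a small negative fold change of IAA over EtOH, but few passed the test. Of 75 tested members, 6 were lower and 1 was higher at an FDR of 0.05 (edgeR quasi-likelihood test, 4 IAA against 4 EtOH libraries). Of all 15110 genes tested, 7.6% were called lower and 8.83% higher, so the count of lower members was close to the background. In bulk RNA fewer cells that transcribe a gene and less RNA per cell cannot be told apart. The median log2 fold change of the members was −0.20, against −0.05 for all genes tested. Of the 75 members 55 were below 0, against 53.6% of all genes tested. Among protein-coding genes, 70.4% of those under 5 kb and 67.5% of those of 5 to 10 kb were below 0. Without 10E EtOH replicate 1 the members' median was −0.12. The large subunit genes had a median of −0.20 (47 tested, 4 lower and 1 higher) and the small subunit genes −0.17 (28 tested, 2 lower and none higher). The libraries of the treatments did not overlap, with IAA below, for 8 members, while 11.3% of all genes tested did so, and with IAA above for 1, against 11.8%.

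**Figure D1:**
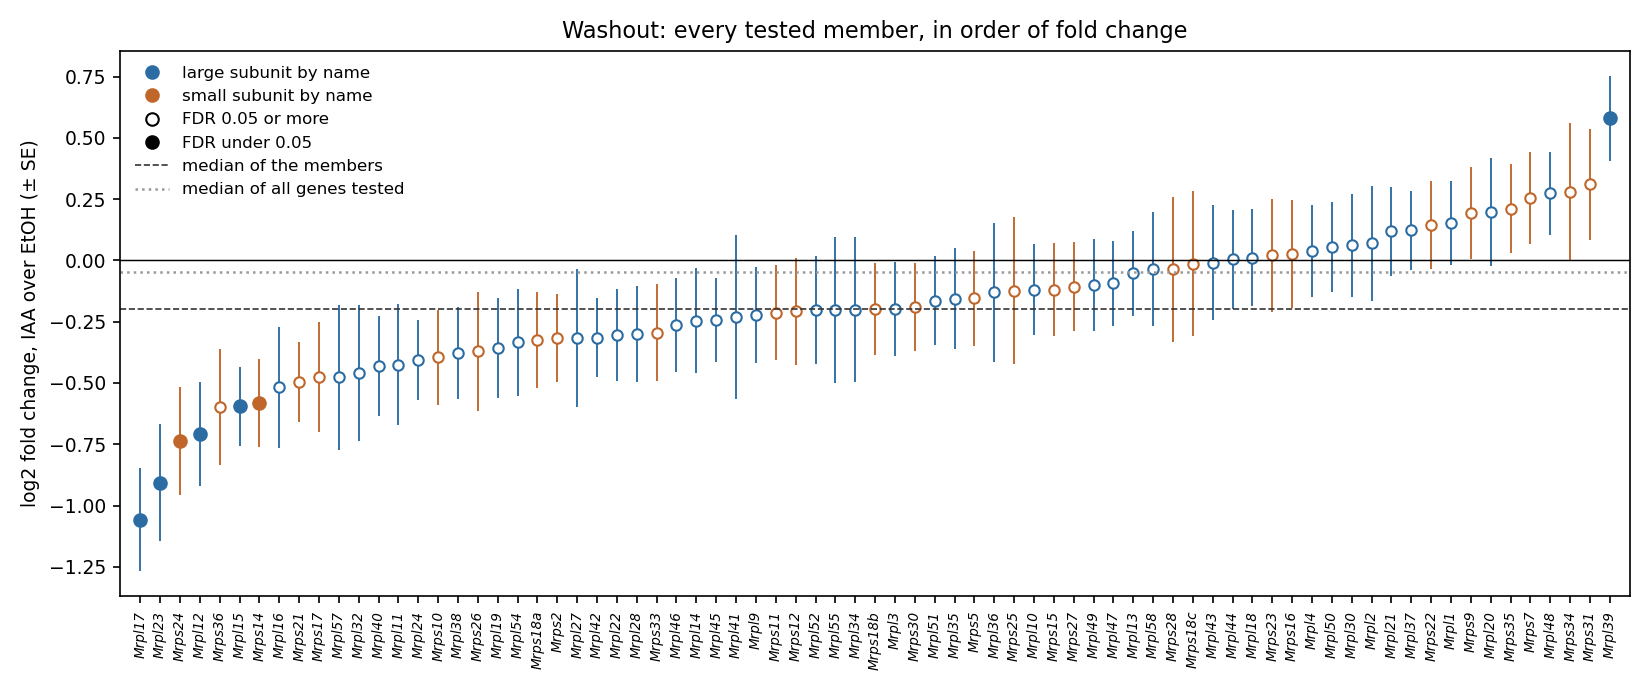
Log2 fold change of IAA over EtOH with its SE for the 75 tested members, in order, coloured by subunit name and filled where the FDR was under 0.05. The dashed line is the members' median (−0.20) and the dotted line that of all genes tested (−0.05). The 6 filled points toward the left and the 1 at the right end are the called members.

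Mrpl17 fell most. Its EtOH libraries stood at 83.5 and 81.3 CPM in line 10E and 87.9 and 58.3 CPM in line 11D, and its IAA libraries at 27.3 and 30.6 CPM in 10E and 44.4 and 46.5 CPM in 11D. Every IAA library lay below every EtOH library, and the lowest were those of 10E. The log2 fold change was −1.06 ± 0.21 (SE, edgeR FDR = 0.00644), from 77.7 ± 13.3 to 37.2 ± 9.67 CPM (SD, n = 4). It was the one member that stayed below FDR 0.05 in all 14 alternative fits over both lines.

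Mrpl23, which forms part of the rim of the peptide tunnel exit, went from 16.8 and 19.6 CPM (10E) and 13.5 and 12.6 CPM (11D) with EtOH to 7.45 and 5.67 CPM (10E) and 10.3 and 9.68 CPM (11D) with IAA. The groups did not overlap, and both the highest EtOH and the lowest IAA libraries were of 10E. Its log2 fold change was −0.91 ± 0.24 (edgeR FDR = 0.0234). Mrpl12 went from 44.2, 40.2, 35.3 and 24.9 CPM to 19.8, 17.8, 22.5 and 28.1 CPM, both in the order 10E then 11D. Here 1 IAA library of 11D lay above 1 EtOH library of 11D, and the log2 fold change was −0.71 ± 0.21 (edgeR FDR = 0.0391). Mrpl15, a core protein of the large subunit, went from 64.8 to 78.3 CPM over the EtOH libraries to 38.6 to 56.1 CPM over the IAA libraries without overlap (−0.60 ± 0.16, edgeR FDR = 0.0256).

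Of the small subunit, Mrps24, which lies where the message enters, stood at 20.7, 29.5, 16.3 and 18.9 CPM with EtOH and at 10.0, 12.0, 14.4 and 14.6 CPM with IAA (10E then 11D). The groups did not overlap, and the treatments lay closer together in 11D than in 10E. The log2 fold change was −0.74 ± 0.22 (edgeR FDR = 0.0390). The counted body of Mrps24 starts 7979 bp before its RefSeq start and shares 19.4% of its length with Urgcp on the same strand, so the counted reads lie outside that shared stretch. Mrps14, a protein of the small subunit head, went from 16.1 to 20.4 CPM to 10.9 to 14.2 CPM without overlap (−0.58 ± 0.18, edgeR FDR = 0.0428).

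Mrpl39 was the single member called higher, of 20 with a positive fold change. Found only in mitochondrial ribosomes, it went from 46.9, 34.7, 42.8 and 30.3 CPM with EtOH to 64.5, 51.8, 54.9 and 59.7 CPM with IAA (10E then 11D). The groups did not overlap, and both lines had positive values (0.51 in 10E, 0.65 in 11D on the log2 scale). The overall log2 fold change was 0.58 ± 0.18 (edgeR FDR = 0.0402).

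**Figure D2:**
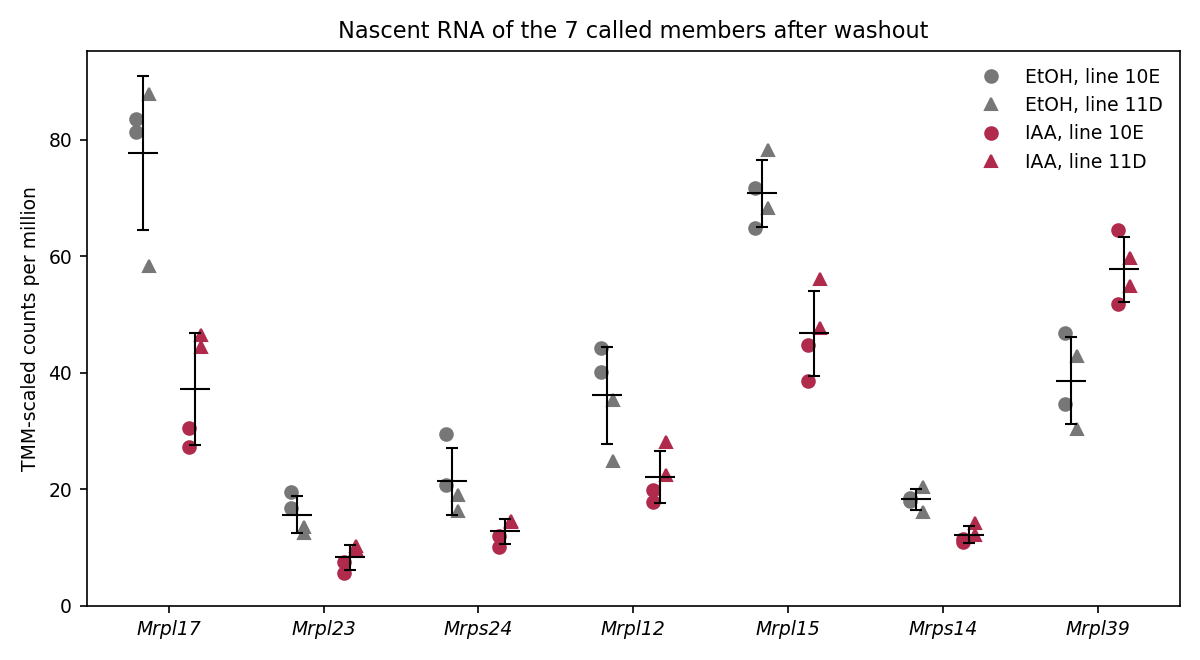
TMM-scaled CPM in each washout library for the 7 called members, circles for line 10E and triangles for line 11D, with mean and SD over 4 libraries. IAA points lie below EtOH points for Mrpl17, Mrpl23, Mrps24, Mrpl15 and Mrps14 and above them for Mrpl39, while Mrpl12 overlaps by 1 library.

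Which members passed changed with the libraries in the fit. With cell line as a block, which the design pairs, 4 members were lower and 1 higher (edgeR), and Mrps24 and Mrpl12 were lost. Without 10E IAA replicate 1 or without 10E IAA replicate 2, 1 member (Mrpl17) passed. Without 10E EtOH replicate 1, without 11D EtOH replicate 1 or without 11D IAA replicate 1, 3 passed each, and without 10E EtOH replicate 2, 2 passed. Without 11D EtOH replicate 2, 7 passed, 6 of them among the 7 called with all libraries, and without 11D IAA replicate 2, 6 passed, all among the 7. Each of the 7 kept its direction in all 14 alternative fits over both lines, which reuse the same libraries. Mrpl23 ran from −1.01 to −0.75, Mrps24 from −0.85 to −0.54, Mrpl12 from −0.85 to −0.60 and Mrpl39 from 0.47 to 0.68 on the log2 scale. The calls held less often than the direction. Of the 14 fits, Mrpl15 passed in 10, Mrpl23 in 9, Mrps24 in 7, Mrpl12 and Mrps14 in 6 each and Mrpl39 in 5. The authors' deposited table of the washout gave an adjusted p under 0.05 to 7 members, the same 7 as here.

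None of the other 7 members named for their roles passed the test. Mrps36 was at −0.60 ± 0.23 (edgeR FDR = 0.0997) with no overlap between groups (7.74 to 9.44 CPM with EtOH, 4.14 to 6.72 CPM with IAA). Mrpl11, at the base of the stalk, was at −0.42 ± 0.25 (edgeR FDR = 0.253), Mrps12 of the decoding centre at −0.21 ± 0.22 (edgeR FDR = 0.545) and Mrpl3, near the peptidyl transferase centre, at −0.20 ± 0.19 (edgeR FDR = 0.510). Mrpl41 was at −0.23 ± 0.33 (edgeR FDR = 0.668), and Mrpl58, a peptidyl-tRNA hydrolase that frees stalled ribosomes, at −0.04 ± 0.23 (edgeR FDR = 0.930). Mrps7, which contacts the ribosomal RNA of the head, was at 0.26 ± 0.19 (edgeR FDR = 0.371).

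Members took 0.268% ± 0.0148 of all counts with EtOH and 0.160% ± 0.0267 with IAA (SD, n = 4 each). With the ribosomal RNA-like loci left out of the total, the shares were 0.298% ± 0.0219 and 0.261% ± 0.0310, and the groups overlapped (0.266 to 0.314% against 0.222 to 0.294%). Leaving these loci out moved the IAA share by over 1.5 times. The fit without these loci called 6 lower and 1 higher.

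Taken line by line, the counts of lower members were close to the background in both lines, and the medians were −0.31 in 10E and −0.01 in 11D. In line 10E, taken from the fit with 4 line-by-treatment groups, 7 members were lower and none higher (9.46% and 8.84% of all genes were called). The median there stood against −0.07 for all genes, and 65 of 75 were below 0 (53.75% of all genes were). In line 11D 0 were called in either direction (1.02% and 1.59% of all genes were). Of the 75, 5 had an unadjusted p under 0.05 there (edgeR), and the share of all genes past it was not counted. The median in 11D stood against −0.03 for all genes, and 39 of 75 were below 0 (52.2% of all genes were). The members called in 10E were Mrpl17 (−1.51), Mrpl23 (−1.48), Mrps24 (−1.19), Mrpl12 (−1.17), Mrps25 (−0.98), Mrps17 (−0.91) and Mrpl15 (−0.71). In 11D Mrpl17 was at −0.69, Mrpl23 at −0.38, Mrps24 at −0.28, Mrpl12 at −0.25, Mrps25 at 0.49, Mrps17 at −0.06 and Mrpl15 at −0.50.

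By library, 60 and 42 of the 75 members lay above their EtOH mean in the EtOH libraries of 10E and 47 and 11 in those of 11D (replicates 1 and 2). In the IAA libraries 23 and 12 lay above it in 10E and 22 and 31 in 11D. The EtOH library 11D replicate 2 thus stood as low as the IAA libraries, and without it the members' median was −0.28. Without 10E EtOH replicate 1, where the most members lay above the mean, the median was −0.12. Outside the ribosomal RNA-like loci the IAA libraries of 10E held 3893614 and 6349810 counts and those of 11D 7283281 and 6435575. The part of depth in the difference between lines was not tested.

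The difference between lines was not established for any single member. The interaction passed for 0 of 75 members, and for 0% of all genes, with edgeR, and DESeq2 likewise called 0 members. At an unadjusted p under 0.05 there were 11 members, 10 of them with a more positive change in 11D. The share of all genes past that p was not counted. In sign, 60 of the 75 members were more positive in 11D, against 53.9% of all genes tested. The members' median interaction was 0.35 on the log2 scale (11D minus 10E), against 0.08 over all genes tested. By sign alone, 34 members were negative in both lines, 31 negative in 10E and positive in 11D, 5 positive in both and 5 positive in 10E and negative in 11D. Across the 75 members the changes in the lines had Pearson r = 0.25 and Spearman rho = 0.25. These points share libraries and depth and are given as a description.

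**Figure D3:**
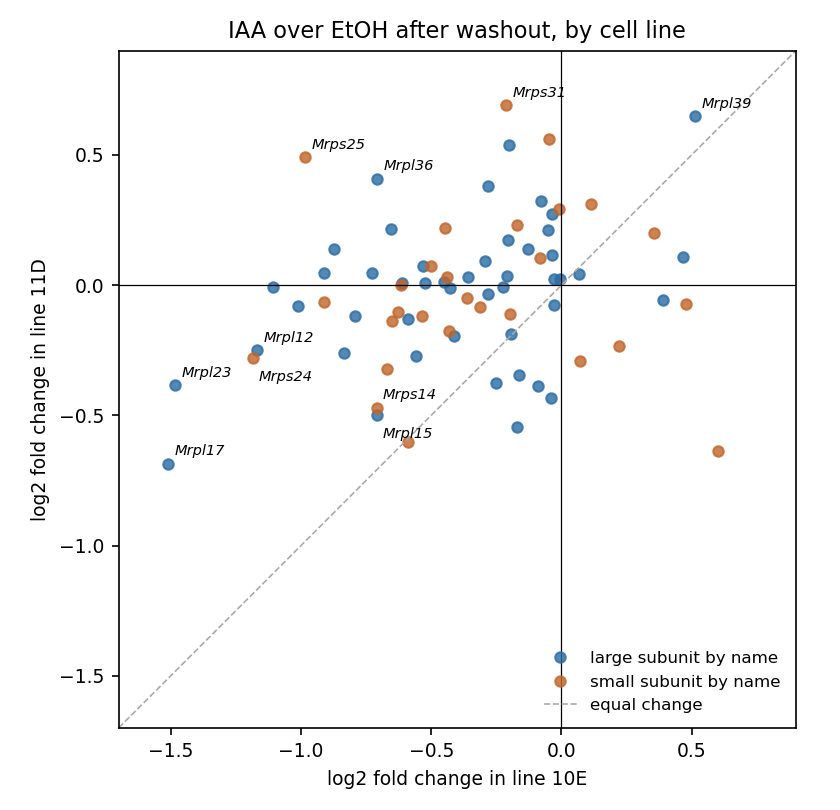
Log2 fold change of IAA over EtOH in line 11D against that in line 10E, 1 point per tested member, with the dashed line marking equal change. Most points lie above that line and left of 0, and Mrpl17 and Mrpl23 lie lowest in 10E (−1.51 and −1.48).

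During the time course the members' negative calls were close to the background, and no member was called positive. Among all genes, as among the members, most calls stood in the 12 h table. As deposited by the authors, these tables had 0 of 76 members past an adjusted p of 0.05 at 0 h, where 0.355% of all genes were negative and 0.0201% positive, and 0 past it at 3 h, where 0.0458% were negative and 0.531% positive. At an unadjusted p under 0.05 there were 0 and 12 members, and the share of all genes past it was not counted. The 0 h values were all within 4e-05 of 0 with 1 common SE of 0.00144, so they carry no order among members. At 3 h, 59 of 76 members had a positive sign (77.6%, against 47.7% of all genes), with a median of 0.05.

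At 6 h 1 member was negative in the authors' deposited table, where 1.39% of all genes were negative and 1.71% positive. It was Mrpl33, a small protein of the large subunit, at −0.74 ± 0.20 (shrunken log2 fold change ± SE, the authors' adjusted p = 0.00382), from −0.05 ± 0.12 at 3 h. At 12 h 9 of 76 members were negative and none positive, while 12.1% of all genes were negative and 8.58% positive. The 9 (11.8%) were thus close to the background for negative calls, and 0 stood against 8.58% for positive calls. The median of all 76 was 0.04, against 0.01 for all genes, and 43 of 76 had a positive sign (51.3% of all genes did).

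Among the large subunit genes at 12 h in the authors' deposited table, Mrpl33 stood at −1.15 ± 0.25 (the authors' adjusted p = 1.66e-05). Mrpl23 followed at −1.07 ± 0.53 (the authors' adjusted p = 0.0248), then Mrpl17 at −0.79 ± 0.35 (the authors' adjusted p = 0.0297) and Mrpl42, found only in mitochondrial ribosomes, at −0.78 ± 0.21 (the authors' adjusted p = 0.000861). The SE of Mrpl23 was the widest of these, and its mean count of 103.9 was the lowest of all 76 members. In the annotation Mrpl33 spans 67.5 kb, but its RefSeq start lies 17016 bp inside that span.

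Of the small subunit genes by name, Mrps27, a pentatricopeptide repeat protein, was the most negative at −1.20 ± 0.26 (the authors' adjusted p = 2.85e-05) in the authors' deposited table. Mrps18b, a paralogue of Mrps18a, was at −0.83 ± 0.26 (the authors' adjusted p = 0.00345), Mrps10, a protein of the head, at −0.79 ± 0.24 (the authors' adjusted p = 0.00291), Mrps18a at −0.76 ± 0.22 (the authors' adjusted p = 0.00226) and Mrps35, found only in mitochondrial ribosomes, at −0.72 ± 0.22 (the authors' adjusted p = 0.004). At 6 h none of these 5 had passed, with values from −0.36 (Mrps27) to −0.06 (Mrps10) in the authors' table.

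**Figure D4:**
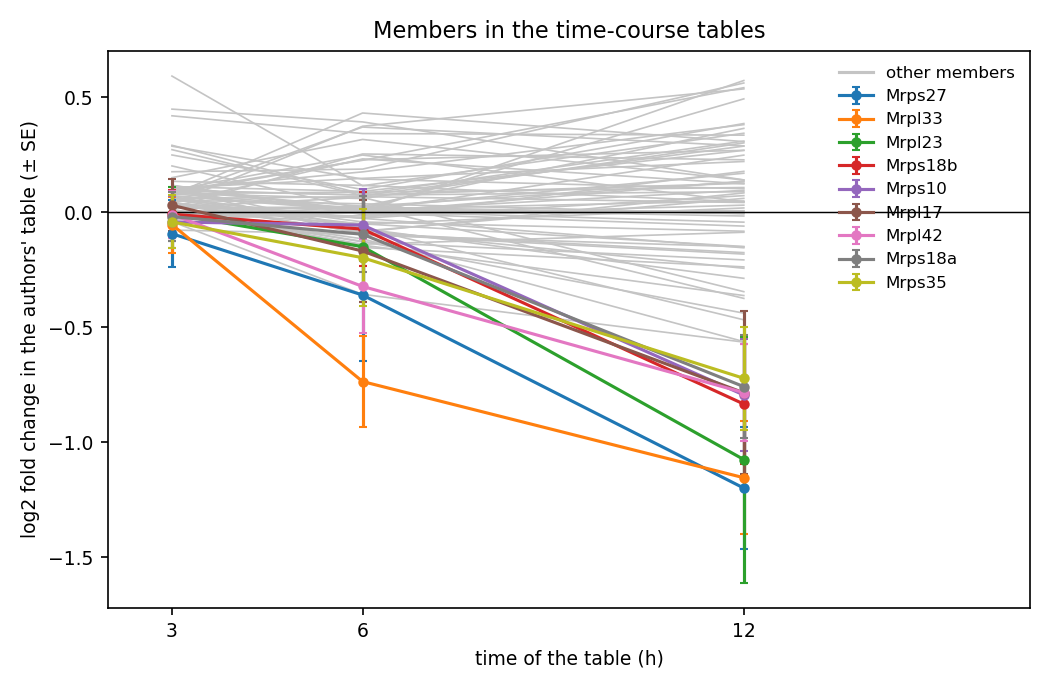
Log2 fold change as signed in the authors' tables at 3, 6 and 12 h, with SE for the 9 members called at 12 h and grey lines for the rest. The called members lie between −0.72 and −1.20 at 12 h, and Mrpl33 is the one already called at 6 h (−0.74).

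Only 2 members, Mrpl17 and Mrpl23, were both negative in the 12 h table and lower after washout. The other 7 negative members of 12 h did not pass in the washout: Mrps27 was there at −0.11 ± 0.18, Mrps18b at −0.20 ± 0.19, Mrps10 at −0.40 ± 0.19, Mrpl42 at −0.31 ± 0.16, Mrps18a at −0.32 ± 0.20 and Mrps35 at 0.21 ± 0.18 (log2 fold change ± SE, edgeR FDR from 0.175 to 0.721), and Mrpl33 was not measured. In return Mrps24 (0.03), Mrpl12 (−0.29), Mrpl15 (−0.56), Mrps14 (−0.08) and Mrpl39 (0.36) missed the threshold in the authors' deposited table of 12 h. Across 75 members the 12 h and washout values had Pearson r = 0.31 and Spearman rho = 0.27, given as a description.

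At 12 h the members ran with gene length. Of the 25 members under 5 kb, 1 was negative in sign and 0 were called, with a median of 0.14. Of the 10 members of 20 kb or more, 9 were negative in sign and 4 were called, with a median of −0.52. All protein-coding genes with an adjusted p showed the same order: 18.8% of genes under 5 kb and 60.7% of those of 20 kb or more were negative, with medians of 0.24 and −0.11, and 1.35% and 17.6% were called negative. Across 76 members log length and the 12 h value had Pearson r = −0.61 and Spearman rho = −0.63, against −0.24 and −0.33 across 15499 protein-coding genes (points share libraries and normalisation, a description only).

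After washout the order ran the other way, though weakly. The members under 5 kb had a median of −0.21 and those of 20 kb or more −0.04, while all protein-coding genes had −0.27 and 0.06. Of all protein-coding genes, 70.4% under 5 kb and 44.8% of 20 kb or more were negative. Across 75 members log length and the washout value had Pearson r = 0.23 and Spearman rho = 0.22. Across 12764 protein-coding genes these were 0.18 and 0.21 (a description only). For 5 to 10 kb the median was −0.21 in members and −0.21 in all genes, and for 10 to 20 kb it was −0.16 and −0.09. By exonic share the members' median lay below that of all genes in every bin. When protein-coding genes were split into 5 equal bins, the bin with the highest exonic share held 32 of the 75 members. There the median was −0.27 in members and −0.17 in all 2530 genes. From the lowest bin to the next below the highest, the medians were −0.07 in members (n = 2) and 0.01 in all genes, −0.25 (n = 7) and 0.05, −0.25 (n = 12) and 0.02, and −0.13 (n = 22) and −0.05. For 3 h the bins were cut anew over protein-coding genes with a fold change there, with or without an adjusted p. The highest bin then began at an exonic share of 40.6% and held 3519 genes, against 36.7% in the washout. The share of positive signs differed between these bins. In the highest, 25 of 27 members and 69.7% of all its genes were positive in the authors' table, against 0 of 2 members and 22.2% of genes in the lowest.

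**Figure D5:**
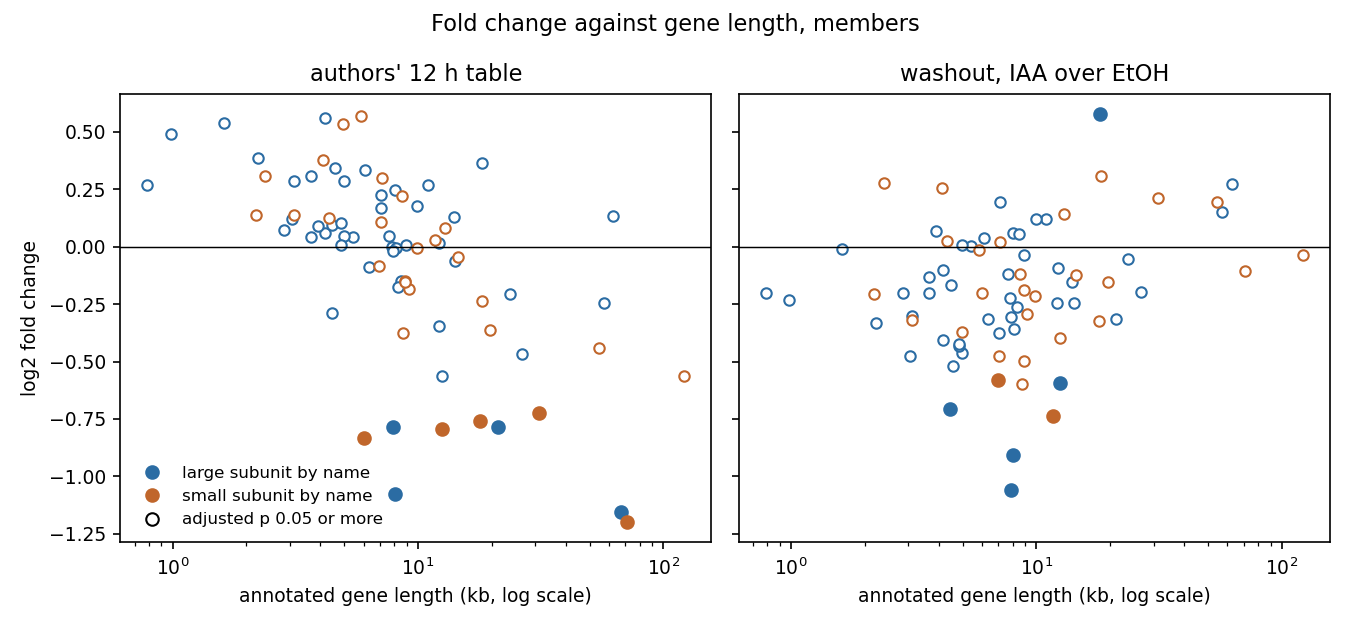
Log2 fold change against annotated gene length on a log axis for the members, in the authors' 12 h table (left) and after washout (right), filled where the adjusted p or FDR was under 0.05. On the left the values fall with length, and on the right they do not.

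Genes that start next to a member on the other strand were read beside it. Mrps27 and its neighbour Ptcd2, 81 bp apart at their starts, were both negative at 12 h (−1.20 and −1.02 ± 0.25, the authors' adjusted p of Ptcd2 = 0.000193). Mrps18b and Ppp1r10, 45 bp apart, were negative too (−0.83 and −1.62 ± 0.25, the authors' adjusted p of Ppp1r10 = 2.16e-09). Gga3, a trafficking adaptor, was negative (−0.99 ± 0.20) beside Mrps7 at 0.38 ± 0.38, which did not pass. At 12 h the authors' deposited table had 4 of 32 neighbours negative and 2 positive, near or below the background of 12.1% and 8.58%. After washout 0 of 30 neighbours were lower and 2 were higher (edgeR), where 7.6% and 8.83% of all genes were. The 2 were the histone chaperone gene Hira beside Mrpl40 (0.98 ± 0.19, edgeR FDR = 0.00632) and the chaperonin subunit gene Tcp1 beside Mrpl18 (0.58 ± 0.14, edgeR FDR = 0.0181). None of the 7 members called after washout has such a neighbour.

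Transcripts upstream of promoters, called PROMPTs, were listed for part of the members. An adjusted p was given for 39, 40, 22 and 23 of them at 0, 3, 6 and 12 h. The single call was the PROMPT of Mrpl20 at 12 h, positive at 2.15 ± 0.81 (the authors' adjusted p = 0.0208) on a mean count of 8.29, where the authors' deposited table had 3.11% of all PROMPTs positive. The Mrpl20 gene itself was at 0.17 ± 0.30 there.

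Genes in lists around mitochondrial translation were called no more often than all genes after washout. The 5 lists (88 names) held further ribosomal proteins, translation factors, assembly and ribosomal RNA modification, tRNA synthetases, and transcription and replication of mitochondrial DNA. The last list also held regulators of nuclear genes, among them Nrf1, Gabpa, Gabpb1, Yy1 and Myc. Of 84 tested genes, 5 were lower and 5 higher, against 7.6% and 8.83% of all genes. Lower were the proline and tyrosine tRNA synthetases Pars2 (−0.91 ± 0.23, edgeR FDR = 0.0182) and Yars2 (−0.52 ± 0.16, edgeR FDR = 0.0481), the assembly factor Mettl17 (−0.75 ± 0.23), the ribosomal RNA methyltransferase Tfb1m (−0.60 ± 0.18) and Trub2 (−0.57 ± 0.15), a pseudouridine synthase family member. Higher were the RNA-binding proteins Lrpprc (0.71 ± 0.18, edgeR FDR = 0.0182) and Grsf1 (0.61 ± 0.19), the lysine tRNA synthetase Kars (0.59 ± 0.18), which also serves the cytosol, and the assembly GTPase Noa1 (0.58 ± 0.16). The last of the 5, Lars2 (3.48 ± 0.27), is 1 of the 11 loci with ribosomal RNA-like reads, and its value is that of those reads.

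At 12 h the same 5 lists held 19 negative and 3 positive genes of 86 in the authors' deposited table (background 12.1% and 8.58%), with a median of −0.26 against 0.01 for all genes. The most negative were Tfb1m (−1.96 ± 0.32), Nrf1 (−1.77 ± 0.38), the GTPase Gtpbp10 (−1.62 ± 0.35), the single-stranded DNA-binding protein Ssbp1 (−1.32 ± 0.30), the small subunit protein Ptcd3 (−1.05 ± 0.30) and the glutamate tRNA synthetase Ears2 (−1.03 ± 0.26). The 3 positive were Mrm1 (1.35 ± 0.27), Noa1 (0.87 ± 0.26) and Hars2 (0.68 ± 0.26). Gabpb1 (−0.66 ± 0.25) and Yy1 (−0.54 ± 0.24), named after their values were seen because GABP and YY1 sites are treated above, were also negative. Gabpa, the other GABP gene of the lists, did not pass (−0.11 ± 0.22, the authors' adjusted p = 0.744). Tfb1m was both negative at 12 h and lower after washout, and Noa1 both positive at 12 h and higher after washout. Of the tRNA synthetases 6 of 19 were negative and 1 positive at 12 h, of the translation factors 4 of 13 and 0, and of the assembly and modification factors 4 of 31 and 2.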

How the data were processed

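The authors deposited raw counts of read pairs for the washout libraries. Per the file headers, featureCounts 2.0.1 counted pairs with both ends mapped on the reverse strand, by gene name, over the whole gene and so introns too. STAR, deepTools and mm10 are named in the submitters' processing notes, the tools without versions. The time-course tables hold the authors' log2 fold changes, shrunken toward 0 as the values show, with an SE (a score in the authors' tables), p-values and adjusted p-values, and the authors' mean normalised count, a signal value whose scaling is not given in the sources used here. They were read, not refitted.

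Counts were tested with edgeR 4.0.16 in R 4.3.3 (quasi-likelihood, robust, TMM, filterByExpr, Benjamini-Hochberg over all genes tested, FDR 0.05, two-sided), without a block. Each line occurs in both treatments, so line pairs the libraries by design. Correlations of deviations between same-line libraries ran from −0.497 to 0.345. SEs are the absolute fold change over the square root of F. DESeq2 1.42.0 was an alternative. Loci counted as ribosomal RNA-like held at least 0.1% of a library and at least 2 times the EtOH share in IAA, a rule set after seeing the data. The code was tested on simulated data. Members and lists were chosen with earlier results of these data known. Members were named if called in a comparison, among the 3 highest or 3 lowest by EtOH level, or for their role (Mrpl12, Mrpl58, Mrps12, Mrps36, Mrpl11, Mrps7, Mrpl3, Mrpl41), and other list genes if called, up to 6 a direction. Lengths, overlaps and neighbours come from GENCODE M21, with the same coordinates for 52830 of the 53177 names that matched once. Tables of enhancer transcripts and DNase-hypersensitive sites were not used here.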

Additional observations from a re-analysis of the deposited data

Results flagged for a closer look

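Mrps28 stood apart in 1 EtOH library: 11D EtOH replicate 2 stood at 137.2 CPM and the other 3 between 62.7 and 69.2 CPM, a gap of 0.914 of the group's range, above Dixon's critical value for 4 values. In Mrps10 the IAA library 10E replicate 2 (27.7 CPM) lay apart from the other 3 (39.6 to 41.8 CPM), with a gap of 0.845 of the range. Chance marks about 1 in 20 such groups.

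In 3 members every IAA library lay below the EtOH libraries of its line in 10E and above them in 11D. Each line has only 2 libraries against 2. The share of all genes with this pattern was not counted, so the 3 are given as a description. Mrps25 stood at 28.9 and 43.1 CPM with EtOH and 18.4 and 18.1 CPM with IAA in 10E, and at 24.6 and 34.5 CPM against 38.1 and 45.2 CPM in 11D. Its interaction was 1.48 ± 0.37 on the log2 scale (unadjusted p = 0.00229, edgeR FDR = 0.261), and it passed without the filter on low counts (1.497, edgeR FDR = 0.0157). Mrps31 was at 60.4 and 69.8 against 54.7 and 57.7 CPM in 10E and at 71.2 and 57.4 against 97.5 and 110.2 CPM in 11D, with an interaction of 0.90 ± 0.30 (edgeR FDR = 0.264). Mrpl36 was at 7.66 and 7.40 against 5.49 and 3.82 CPM in 10E and at 5.16 and 5.19 against 5.65 and 8.12 CPM in 11D, with an interaction of 1.12 ± 0.48 (edgeR FDR = 0.319). None of the 3 interactions passed the FDR of 0.05 with the filter.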

How the results depend on the processing

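The members' washout median stayed below 0 in all 13 alternatives tried (−0.28 to −0.12 when 1 library was left out). The count of called members (7) was 8 with DESeq2, 9 at FDR 0.1, 7 with DESeq2 size factors or without ribosomal RNA-like loci, 5 with line as a replicate block and 5 with no filter on low counts. It fell to 1 (Mrpl17) with a replicate block by line and replicate number, a pairing the labels do not state, and ranged from 1 to 7 when 1 library was left out. Fits to 1 line alone, added after seeing the data, gave 7 lower members in 10E, of which 4 were among the 7, and 0 in 11D (2 libraries against 2). The interaction count of 0 became 1 with no filter and stayed 0 in the other 12 alternatives, the replicate block by number within the line among them. In the authors' tables an adjusted p of 0.1 gave 1 positive member at 3 h (Mrpl16, 0.59) and 11 negative at 12 h. The members' share of counts moved from 0.268 to 0.298% (EtOH) and from 0.160 to 0.261% (IAA) without the ribosomal RNA-like loci.

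Signs of uncalled members near 0 turned when 1 library was left out: Mrps28 (−0.04) then ranged from −0.32 to 0.31, and Mrpl58 (−0.04) from −0.21 to 0.18. Of the 276 values of named members under alternatives, 236 kept direction and call, 33 kept direction and lost the call, and 7 reversed. All 33 lost calls were of members called in the main fit, Mrpl17 not among them. The other named members had no call to lose, so the 236 do not measure how stable the calls were. The block by line and replicate number and the fit with no filter were not among these alternatives. No paired analysis was possible for the time course because its tables hold no library values. Low counts limit Mrpl41 (2.60 CPM with EtOH).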
